A study of Mus musculus with 6 samples.

Results

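The genes described here lie on mouse chromosome 5 between 104 and 140 Mb of build GRCm38, read in neutrophils sorted from lung. A gene was a member when all its exons fell inside these 36 Mb and it had 10 or more raw counts in at least 3 of the 6 libraries. Of 1095 genes of the interval in the count table, which holds 55487 genes in all, 443 were members, and 648 had fewer counts. Ap1s1, Vps37b, Ncf1 and Hvcn1 also met the count rule but served as landmarks and were not counted as members. The interval was drawn around genes that stood out between mutant and wt in these same libraries. Every difference between the groups is therefore given as a description and supports no claim about the interval. The wt group was 3 libraries from Cre-negative TGFbR2-fl/fl littermates. The mutant group was 3 libraries from Mrp8-Cre;TGFbR2-fl/fl mice, in which the S100A8 (Mrp8) promoter drives Cre in myeloid cells. All 6 libraries thus carry the loxP-flanked Tgfbr2 alleles from a cross of a B6.Cg transgene line with a B6;129 line, and only the mutants carry the S100A8-cre,-EGFP transgene. The labels give no age, and they do not tie a library to 1 mouse, so the spread is between libraries.

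The interval holds several gene families of innate immunity, such as the interferon-induced guanylate-binding proteins and 2'-5' oligoadenylate synthetases, and the mouse counterpart of the Williams syndrome region. A line made by crossing keeps a stretch of donor chromosome around a selected allele or transgene, and genes in such a stretch can differ between carriers and non-carriers through sequence variants. An inserted transgene can also alter the genes next to it. Either can appear as expression differences that cluster along a chromosome, so the position of the differences was examined. Tgfbr2 itself lies on chromosome 9. The counts hold no allele or junction information, and neither a haplotype nor an insertion site was read here.

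Ap1s1 had the widest difference of the 4 landmarks. The start regions of 4 members near it whose mutant libraries were all below the wt libraries are shown to give the reference sequence of these neighbours. Each runs 5′ to 3′ on the strand of its gene, from 250 bases before to 50 bases after a RefSeq start site in GRCm38.p6. They are chr5:136244891-136245190 for Sh2b2, chr5:136565932-136566231 for Cux1 and chr5:137333533-137333832 for Slc12a9, all on the minus strand, and chr5:136986769-136987068 on the plus strand for Plod3. Capitals mark GGGCGG or its reverse complement, the GC box bound by Sp family factors.
Sh2b2: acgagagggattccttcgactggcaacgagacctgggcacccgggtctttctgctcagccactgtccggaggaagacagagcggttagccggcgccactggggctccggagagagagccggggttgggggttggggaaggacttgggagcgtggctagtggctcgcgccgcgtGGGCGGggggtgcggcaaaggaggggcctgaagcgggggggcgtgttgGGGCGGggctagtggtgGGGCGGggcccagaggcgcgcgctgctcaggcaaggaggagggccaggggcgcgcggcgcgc
Cux1: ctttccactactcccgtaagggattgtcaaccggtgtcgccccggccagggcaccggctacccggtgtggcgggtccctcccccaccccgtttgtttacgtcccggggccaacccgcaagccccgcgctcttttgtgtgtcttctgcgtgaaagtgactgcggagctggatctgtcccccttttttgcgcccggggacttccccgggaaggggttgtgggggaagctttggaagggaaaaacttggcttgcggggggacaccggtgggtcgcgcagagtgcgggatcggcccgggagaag
Plod3: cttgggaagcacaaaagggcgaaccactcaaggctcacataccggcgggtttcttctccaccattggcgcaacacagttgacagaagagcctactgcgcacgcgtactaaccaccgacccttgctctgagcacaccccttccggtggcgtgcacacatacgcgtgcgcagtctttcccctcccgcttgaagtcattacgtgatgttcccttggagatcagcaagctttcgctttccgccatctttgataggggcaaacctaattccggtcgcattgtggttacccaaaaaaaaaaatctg
Slc12a9: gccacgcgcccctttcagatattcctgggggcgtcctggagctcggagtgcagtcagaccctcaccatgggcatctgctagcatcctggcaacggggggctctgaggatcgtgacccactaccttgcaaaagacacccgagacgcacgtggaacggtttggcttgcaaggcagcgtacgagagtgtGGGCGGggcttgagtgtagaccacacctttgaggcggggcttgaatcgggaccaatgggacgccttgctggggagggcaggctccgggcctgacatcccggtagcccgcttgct
These windows held 29, 25, 19 and 19 CpG dinucleotides for Sh2b2, Cux1, Plod3 and Slc12a9, against a median of 7 over all 32851 start regions of the RefSeq table and 21 over the 376 entries that belong to members. The GC box occurred 3 times at Sh2b2 and 1 time at Slc12a9, on either strand, and was found in 35.7% of all start regions and 63.0% of those of members. The letters CCAAT, a promoter element that the Cux1 protein is known to bind, occurred 1 time each at Plod3 and Slc12a9, with both strands searched. They occurred in 37.4% of all start regions. Of the 438 members in the fit, 306 had an entry in that table.

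Members covered the range from abundant neutrophil surface genes to transcripts near the limit of counting. By biotype 359 were protein coding and 84 were not, among them 34 unreviewed single-locus transcripts (TEC). Together they took 2.24% to 2.38% of the counts of each library. Counts are given as CPM (scaled to library size), after TMM scaling, and levels of different genes are compared per kilobase of exon. Hcar2, the receptor for niacin and beta-hydroxybutyrate, had the highest level per length at 1006 CPM per kb, and Selplg, the selectin ligand PSGL-1 used by neutrophils to roll on endothelium, followed at 753. Pilra, an inhibitory receptor, was at 222 CPM per kb, and Rabgef1, which activates the endosomal GTPase Rab5, was at 179. At the other end 84 members had a mean under 1 CPM. The median SD of log2(CPM + 0.5) within groups was 0.19 over the 197 members that averaged 10 CPM or more and 0.20 over all such genes.

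Library totals ran from 30403494 to 35906780 counts, and 3 counts in a library equal 0.0835 to 0.0987 CPM, which covers counting error only. Neutrophil markers summed to 16454 to 21833 CPM in mutant and 19426 to 20948 CPM in wt libraries, with 8 of the 10 genes lower and 2 higher in mutants and 0 at 0 in a library. The 2 with an unadjusted p under 0.05, Cxcr2 and S100a8, were lower. For this and the next list, 6.73% of all tested genes had such a p. Endothelial markers summed to 1013 to 1276 CPM in mutant and 1144 to 1428 CPM in wt libraries, with 7 of 7 genes lower in mutants, 0 at an unadjusted p under 0.05 and 0 at 0 in a library. Tgfbr2 itself averaged 187 ± 15.4 CPM over the mutant libraries and 191 ± 8.74 CPM over the wt libraries (SD, n = 3), a count over all exons that does not check the deletion of a single one.

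Across the interval, members with higher and with lower values in mutants were about equally many, 232 and 206. Of the 443 members, 438 were in the fit over 15774 genes, and the 5 others had means of 0.250 to 0.445 CPM. By edgeR's quasi-likelihood test 0 members had an adjusted p under 0.05, against 0.00634% of all tested genes, and the smallest adjusted p was 0.188. The 1 gene that this test called over all tested genes was Ap1s1, a landmark inside the interval. At an unadjusted p under 0.05 there were 34 members (7.76%), 18 higher (3.51% of all tested genes were) and 16 lower (3.22%) in mutants, against 6.73% of all tested genes in either direction. In 65 members (14.8%) the 3 mutant and 3 wt libraries did not overlap, 32 with mutants above and 33 with mutants below, against 13.0% of all tested genes. The median log2 fold change was 0.02 over members and 0.01 over all tested genes, and the median of its absolute value was 0.26 and 0.23. DESeq2's Wald test called 10 members, 5 higher and 5 lower, against 0.983% of all tested genes, and limma-voom called 0 members, against 0.00634%. With the landmarks counted DESeq2 called 12 genes of the interval, with Ap1s1 and Vps37b among them. With no filter on low counts edgeR called 6 members, against 0.268% of 26108 genes, and over genes that averaged 10 CPM or more it called 4, against 0.261%. The 10 members of DESeq2 were Spp1, Adgrd1, Tfip11, Rabgef1 and Gm6583 on the higher side and Cux1, Gm38082, A430110C17Rik, Ulk1 and Slc12a9 on the lower side. Since the contrast helped to draw the interval, these shares are not read as a result.

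**Figure D1:**
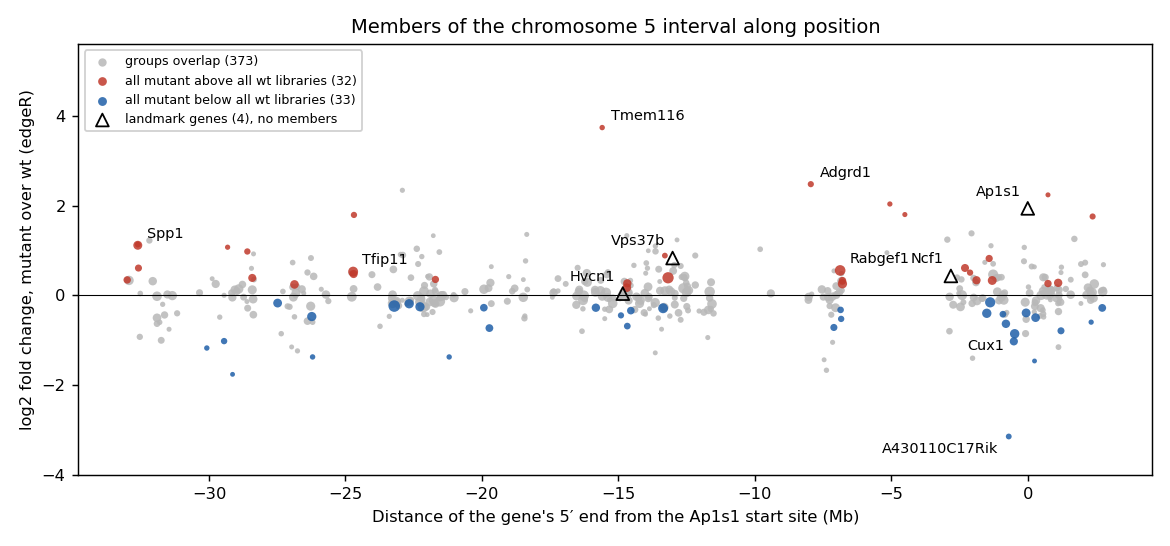
Each point is 1 of the 438 members in the fit. The x axis is the distance of its 5′ end from the Ap1s1 start site in Mb, and the y axis is the edgeR log2 fold change of mutant over wt. Point size grows with the level, red marks the 32 members with all mutant above all wt libraries, blue the 33 with all mutant below, grey the rest and open triangles the 4 landmarks. Red and blue points occur at both ends and in the middle of the interval, with gaps such as the bin of 124 to 126 Mb.

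The same measures were taken in 63 equal stretches of 36 Mb on the 18 other autosomes, each with 100 to 502 tested genes. The share at an unadjusted p under 0.05 ran from 3.54% to 10.9% over these stretches with a median of 6.78%, and 17 of them lay above the 7.76% of the chromosome 5 members. The share with groups that did not overlap ran from 9.34% to 21.8%, and 14 stretches lay above the 14.8% of the members. For the median absolute log2 fold change 9 stretches lay above the interval. The share called by DESeq2 was 2.28% of members, and 3 of the 63 stretches lay above it, the highest at 2.61%. Within chromosome 5, the stretches of 32 to 68 Mb and 68 to 104 Mb had 4.90% and 7.19% of 204 and 139 genes at an unadjusted p under 0.05. The stretches differ in gene number, and the order is a description of these libraries.

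**Figure D2:**
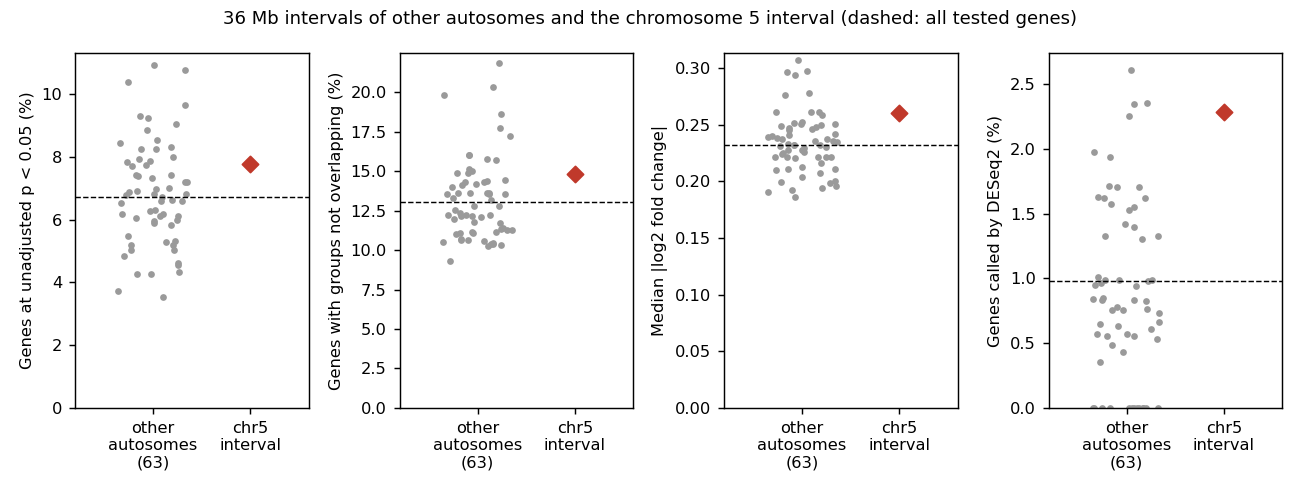
Each grey point is 1 of 63 stretches of 36 Mb on other autosomes, spread sideways for visibility, and the red diamond is the chromosome 5 interval without the landmarks. The panels plot the percentage of genes at an unadjusted p under 0.05, the percentage with groups that did not overlap, the median absolute log2 fold change and the percentage called by DESeq2, with the value of all 15774 tested genes dashed. The diamond lies inside the range of the grey points in all 4 panels.

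The number of members with such differences varied between small bins, and bins with low and with high numbers are named as a description. In 2 Mb bins, 0 of 34 members between 124 and 126 Mb and 0 of 15 between 118 and 120 Mb had groups that did not overlap. Between 130 and 132 Mb 7 of 15 did, 5 with mutants higher, and the median log2 fold change there was 0.26. Between 136 and 138 Mb, the bin that holds Ap1s1, 10 of 51 did, 8 with mutants lower and 2 with mutants higher, against 6.21% lower and 6.82% higher over all tested genes. An unadjusted p under 0.05 was found for 8 of the 51 members there, for 4 of 18 between 112 and 114 Mb and for 4 of 20 between 104 and 106 Mb, against 6.73% of all tested genes. The bins hold few genes and neighbours can share reads, so no order among them is drawn. At the edges of the interval the members just inside, Nudt9 and Psmg3, had log2 fold changes of 0.34 and 0.13, and the genes just outside, Hsd17b11 and Mad1l1, had -0.03 and -0.36. By the count rule in 9 members the lowest of the 3 highest counts was exactly 10, and in 6 genes left out it was 9.

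Ap1s1 (137034993 to 137046135, minus strand), which encodes a subunit of the AP-1 clathrin adaptor, was at 68.4, 65.9 and 52.6 CPM in mutant replicates 1 to 3 and at 15.9, 17.7 and 15.3 CPM in wt replicates 1 to 3. Within 1 Mb of it lay 30 members that averaged 5 CPM or more. In 7 of them the groups did not overlap, 6 with mutants lower and 1 with mutants higher. The share was 13.0% over all tested genes, 6.21% lower and 6.82% higher. These include sparsely counted genes, and over genes that averaged 10 CPM or more the share was 15.1%. The median log2 fold change of these 30 was -0.08. The 3 nearest below it in position were Plod3, Znhit1 and Cldn15, with gaps of 38.3, 47.0 and 59.1 kb. Plod3 (136987019 to 136996648), a lysyl hydroxylase that modifies collagen, was at 50.5, 66.3 and 51.3 CPM in mutants and at 69.5, 67.4 and 83.8 CPM in wt, so that mutant replicate 2 lay just under the lowest wt library. Znhit1, a subunit of a chromatin remodelling complex, was at 9.23, 11.0 and 8.67 CPM in mutants and 10.5, 17.9 and 13.4 CPM in wt. Cldn15, a tight junction claudin, was at 7.93, 4.44 and 5.35 CPM in mutants and 11.5, 13.0 and 7.56 CPM in wt. Both of these overlapped between groups, although the means were lower in mutants. Exons of Plod3 and Znhit1 on opposite strands share 529 bases, and the libraries do not mark strand, so their counts are not independent.

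On the other side of Ap1s1 the nearest members were Trim56, a ubiquitin ligase of antiviral signalling, Srrt, a factor of capped RNA processing, and Trip6, a zyxin family protein. Their groups overlapped, with log2 fold changes of 0.05, -0.24 and -0.17. Beyond them Slc12a9 (137314558 to 137333597), of the cation chloride cotransporter family, was at 45.0, 43.0 and 42.9 CPM in mutants and at 64.4, 56.0 and 64.5 CPM in wt. All 3 mutant libraries lay below all wt libraries, a 1.41-fold ratio of wt over mutant with a log2 fold change of -0.50 ± 0.13 (SE). The members further up, within 1 Mb of Ap1s1 and averaging 5 CPM or more, had log2 fold changes from -0.29 (Gigyf1) to 0.40 (Pcolce and Agfg2). Mepce, with 0.26, was the 1 of them with all mutant above all wt libraries.

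Cux1 (ENSMUSG00000029705.17, 136248135 to 136567490, minus strand) had the smallest unadjusted p of all members, 3.6e-05 by edgeR's quasi-likelihood test. This homeodomain transcription factor stood at 95.3, 102 and 86.6 CPM in mutants and at 193, 155 and 165 CPM in wt. The highest mutant library was well below the lowest wt library, and the log2 fold change was -0.86 ± 0.12 (SE; 95% interval -1.13 to -0.59). A pair of unreviewed transcripts annotated inside Cux1 on the same strand went the same way. Gm38082 (136529596 to 136536477), whose 6882 exon bases share 0 with exons of Cux1, was at 18.9, 19.1 and 15.9 CPM in mutants and 40.7, 37.5 and 31.5 CPM in wt, a 2.04-fold ratio. A430110C17Rik (136345884 to 136350231), likewise outside the exons of Cux1, had 14, 0 and 22 counts in mutants and 100, 80 and 117 counts in wt. Because both lie in introns of Cux1 on its strand, reads of unspliced Cux1 RNA cannot be told from transcripts of their own. The next gene down, Sh2b2 (136218147 to 136246556), an adaptor of receptor and JAK kinases, was at 30.4, 21.6 and 35.8 CPM in mutants and 48.6, 41.5 and 46.3 CPM in wt, a 1.55-fold ratio of wt over mutant.

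From Sh2b2 to Slc12a9, a span chosen after its values were seen, 20 members were in the fit. Of these 20, 14 had a negative log2 fold change, 7 had all mutant below all wt libraries, against 6.21% of all tested genes, and 0 had all mutant above. Their median log2 fold change was -0.38, against 0.01 over all tested genes. Of the 11 that averaged 5 CPM or more, 10 had a negative log2 fold change and 5 had all mutant below all wt libraries, while 0 had all mutant above. The median of the 11 was -0.50. They include Cux1 with Gm38082 and Plod3 with Znhit1, pairs that can share RNA or reads. Ap1s1 lies inside this span and went the opposite way. Alkbh4, outside the span at 893 kb below Ap1s1, also had all mutant below all wt libraries, with a log2 fold change of -0.42.

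**Figure D3:**
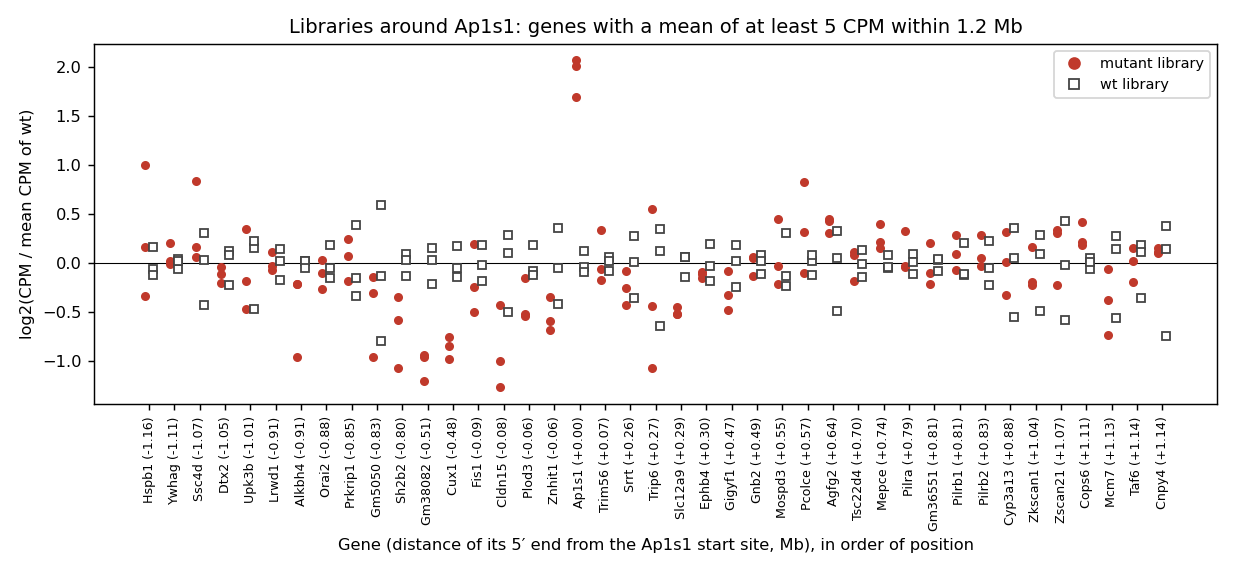
Members with a mean of at least 5 CPM within 1.2 Mb of the Ap1s1 start site, and Ap1s1 itself, are ordered by position on the x axis, with the distance in Mb in brackets. The y axis is log2 of each library's CPM over the wt mean, with mutant libraries as red circles and wt libraries as open squares. The mutant circles of Alkbh4, Sh2b2, Gm38082, Cux1, Plod3 and Slc12a9 lie below their wt squares, those of Ap1s1 far above, and those from Gnb2 upwards mostly scatter around 0.

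Away from Ap1s1 the members with lower values in mutants were scattered. Ulk1 (110784488 to 110810097), the kinase that starts autophagy, was at 102, 84.3 and 83.7 CPM in mutants and 119.5, 121 and 135 CPM in wt. Selplg (113818536 to 113832644) was at 3006, 2909 and 2935 CPM in mutants and 3585, 3307 and 3561 CPM in wt, a 1.18-fold ratio with a narrow spread in both groups. Hip1, a clathrin and actin binding protein, was at 91.3, 98.6 and 115 CPM in mutants and 145, 127 and 131 CPM in wt. Each of these 3 had mutant libraries that were all below the wt libraries. Vsig10, an immunoglobulin domain protein, and Vkorc1l1, a vitamin K epoxide reductase, were lower by the same criterion, with 1.66-fold and 1.64-fold ratios of wt over mutant at means of 17.5 and 7.87 CPM.

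Members with higher values in mutants were scattered too, and some lay close to members with lower values. Rhbdd2 (135632618 to 135646448), which was higher, lay between Hip1 (135406531 to 135545120) and Por (135670033 to 135735326), which were lower. Spp1 (104435118 to 104441050, plus strand), which encodes the secreted glycoprotein osteopontin, was at 106, 72.5 and 119 CPM in mutants and 42.4, 53.0 and 41.9 CPM in wt. Groups did not overlap, and the log2 fold change was 1.11 ± 0.19 (SE). The overlapping transcript Gm42793 on the same strand shares 309 exon bases with it and had a log2 fold change of 1.13. Alveolar macrophages are known to express Spp1, so their markers were read as well. All 8 had positive log2 fold changes and summed to 539 to 1128 CPM in mutant against 270 to 450 CPM in wt libraries, with 0 of 8 at 0 in a library. Most of each sum was Chil3, at 521, 372 and 999.6 CPM in mutants and 319, 264 and 162 CPM in wt. Siglecf, the next most abundant, overlapped between groups, at 89.3, 109 and 67.3 CPM in mutants and 81.2, 80.3 and 78.9 CPM in wt. Of the 8, 3 had an unadjusted p under 0.05, against 6.73% of all tested genes. The part of these markers in the Spp1 values was not tested. Eln, the elastin gene of fibroblasts and smooth muscle, was at 29.1, 20.7 and 31.8 CPM in mutants and 19.2, 20.1 and 14.2 CPM in wt. The fibroblast markers summed to 371 to 600 CPM in mutant and 271 to 321 CPM in wt libraries. Of the 6, 5 had positive log2 fold changes, 4 of them at an unadjusted p under 0.05, and 0 were at 0 in a library. The part of the fibroblast markers was not tested either. In sorted bulk RNA, a change in the number of cells of a type and a change in RNA per cell cannot be told apart.

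Tfip11 (112326358 to 112338073), a factor that takes the spliceosome apart, was at 310.0, 300.4 and 293 CPM in mutants and 196, 221 and 209 CPM in wt, with a tight spread and a 1.44-fold ratio. Its tail-to-tail neighbour Srrd overlaps it by 515 exon bases on the other strand and was at 28.3, 27.1 and 30.8 CPM against 17.3, 24.7 and 20.1 CPM. Reads in the shared bases cannot be told apart without strand. Rabgef1 (130171798 to 130214342) was at 838, 891 and 936 CPM in mutants and 566, 702 and 546 CPM in wt, a 1.47-fold ratio with groups apart. A pair of processed pseudogenes inside Rabgef1, Gm15920 and Gm15921, had log2 fold changes of -0.33 and -0.53, the opposite direction. Hcar2 (123863570 to 123865499), 139 kb from Vps37b, was at 2447, 1932 and 2231 CPM in mutants and 1439, 1807 and 1797 CPM in wt, with mutant replicate 2 close to the upper wt libraries. Rhbdd2, of the rhomboid family, and Tmem120a, a membrane protein of the nuclear envelope, completed the named genes of this side with 1.77-fold and 1.26-fold ratios.

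**Figure D4:**
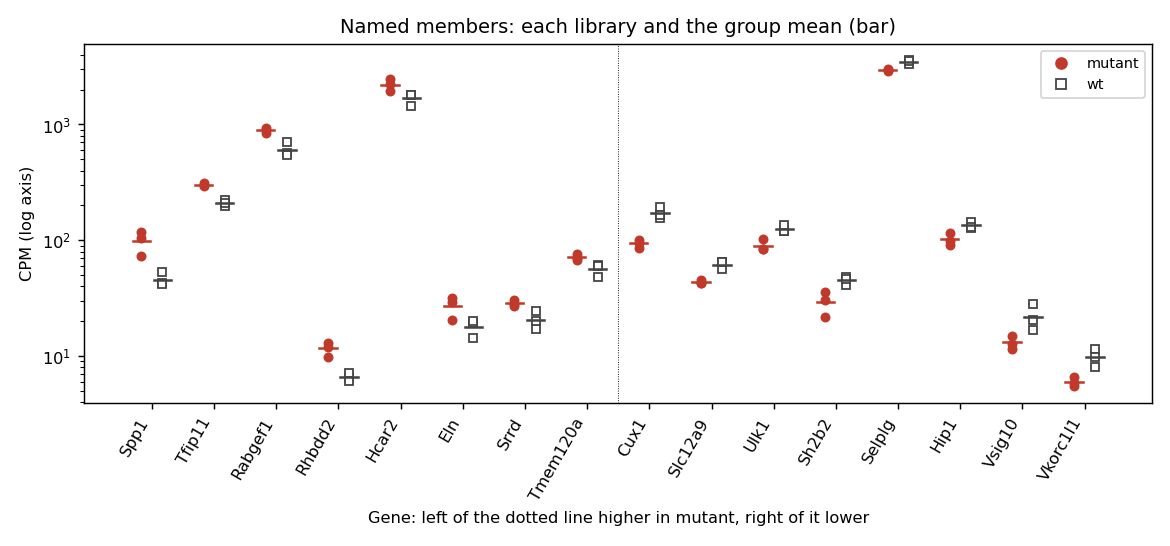
CPM of each library on a log axis for the 16 members named by rule, 8 with higher values in mutants left of the dotted line and 8 with lower values right of it. Red circles are mutant libraries, open squares wt libraries and bars the group means. The groups do not overlap in any of the 16, by the rule that chose them, and most means differ by less than 2-fold.

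The widest ratios came from sparsely counted genes. Adgrd1 (129096750 to 129204599), an adhesion G protein-coupled receptor, had 180, 114 and 165 counts in mutants and 33, 18 and 26 counts in wt, a 5.59-fold ratio. Tmem116 had 28, 91 and 58 counts in mutants and 1, 0 and 12 counts in wt. Zcwpw1, a reader of histone methylation in germ cells, had 24, 16 and 42 counts in mutants and 2, 10 and 4 in wt. It shares 468 exon bases with the far more abundant Pilra on the other strand, and reads there cannot be told apart without strand. Adgrd1, Tmem116 and Zcwpw1 were named for their ratio after the values were seen. Of the 79 fitted members with a mean under 1 CPM, 9 had groups that did not overlap (11.4%, against 10.9% of all tested genes at that level), and of the 54 with at least 100 CPM, 12 did (22.2%, against 19.9%).

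Of the other landmarks, Vps37b, a subunit of the ESCRT-I sorting complex, was at 399, 475 and 383 CPM in mutants and 201, 272 and 234 CPM in wt. Ncf1, a subunit of the NADPH oxidase, and Hvcn1, a proton channel, overlapped between groups. Hvcn1 shares 1574 exon bases with Tctn1 on the other strand, so its counts are not independent of that gene. Within 1 Mb of Vps37b 3 of 54 members had groups that did not overlap, within 1 Mb of Ncf1 3 of 21, and within 1 Mb of Hvcn1 7 of 49, against 13.0% of all tested genes. The nearest established genes on either side of Vps37b, Denr and Ogfod2, had log2 fold changes of 0.13 and -0.21, the unreviewed Gm43661 next to it had 0.54 with overlapping groups, and Hip1r, which overlaps it on the other strand, had 0.08. Next to Ncf1, Gtf2i had -0.21, and next to Hvcn1, Ppp1cc and Pptc7 had 0.00 and -0.01. Pptc7, a mitochondrial phosphatase, shows how 1 library can set a value here. It was at 10.6, 27.8 and 9.41 CPM in mutants, and without mutant replicate 2 its log2 fold change was -0.68.

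Gene families of the interval were read as lists chosen by function. By edgeR 0 members of any list had an adjusted p under 0.05 (0.00634% of all tested genes). DESeq2 called Spp1, Ulk1 and Cux1 (0.983% of all tested genes). All 6 guanylate-binding proteins, interferon-gamma-induced GTPases that attack the vacuoles of microbes, had negative log2 fold changes, with a median of -0.55 against 0.01 over all tested genes. Their groups overlapped in 6 of 6, while 13.0% of all tested genes had groups that did not. Of the 6, 1, Gbp6, had an unadjusted p under 0.05, against 6.73% of all tested genes. Gbp4 was at 47.7, 30.2 and 46.5 CPM in mutants and 74.3, 39.5 and 62.4 CPM in wt, and Gbp6 at 4.06, 2.78 and 6.15 against 12.2, 4.95 and 8.97 CPM. Mutant replicate 2 and wt replicate 2 were the lowest libraries of their groups for both genes. Gbp9, the most abundant of the family per length, was at 185, 126 and 164 CPM against 155, 166 and 160.1 CPM. Near-identical copies and overlapping models in this cluster make the split of reads between its members uncertain.

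The oligoadenylate synthetases, interferon-induced sensors of double-stranded RNA, showed no common direction. Of 8 in the fit, 4 were higher and 4 lower, the median was 0.04, and 0 had groups that did not overlap or an unadjusted p under 0.05. Oasl2 was at 864, 754 and 874 CPM in mutants and 1192, 796 and 999 CPM in wt, and Oas1a at 136, 88.0 and 132 against 109, 81.9 and 100.2 CPM. Of the 5 SIBLING glycoproteins of mineralised tissue, clustered at the lower end of the interval, Spp1 alone was a member. Among 17 surface receptors and channels, 10 were higher and 7 lower with a median of 0.10, and 3 had groups that did not overlap, against 13.0% of all tested genes. Hcar2 and Selplg were the 2 with an unadjusted p under 0.05, against 6.73% of all tested genes. Tgfbr3, the betaglycan co-receptor of TGF-beta, was at 28.8, 26.5 and 39.7 CPM in mutants and 30.3, 27.2 and 22.2 CPM in wt, overlapping.

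Over all tested genes 13.0% had groups that did not overlap and 6.73% had an unadjusted p under 0.05, for comparison with each list below. Among 20 genes of actin, clathrin and vesicle traffic, 11 were higher and 9 lower with a median of 0.03, and in 5 the groups did not overlap. Hip1 and the microtubule linker Clip1, at 224, 235 and 235 CPM in mutants and 278, 247 and 323 CPM in wt, were the 2 with an unadjusted p under 0.05. Arpc3, of the Arp2/3 actin nucleating complex, had the highest level per length and a log2 fold change of 0.05. The 18 signalling adaptors, kinases and phosphatases had 7 higher and 11 lower with a median of -0.05 and 3 whose groups did not overlap, and Ulk1 and Sh2b2 were the 2 with an unadjusted p under 0.05. Pxn, the focal adhesion adaptor paxillin, had the highest level of them per length and a log2 fold change of -0.14. Of 26 transcription factors and chromatin proteins 11 were higher and 15 lower with a median of -0.06 and 3 whose groups did not overlap, and Cux1 was the 1 with an unadjusted p under 0.05. Mafk, a small Maf protein and the highest of them per length, had a log2 fold change of 0.08. Bcl7b, a chromatin remodelling subunit, was at 32.0, 37.8 and 29.2 CPM in mutants and 28.9, 26.7 and 22.8 CPM in wt. The 18 genes of the Williams syndrome region had a median of 0.08, 10 higher and 8 lower, and its most abundant gene per length, the translation factor Eif4h, was at 257, 264 and 273 CPM in mutants and 257, 263 and 272 CPM in wt. In 3 of the 18 the groups did not overlap, all 3 with mutants above, and Eln was the 1 gene of the region with an unadjusted p under 0.05. Cldn3, an epithelial claudin of the Williams region, was at 5.11, 2.27 and 4.55 CPM in mutants and 1.18, 2.91 and 0.50 CPM in wt. Epithelial markers summed to 456 to 825 CPM in mutant and 204 to 472 CPM in wt libraries. Of the 8, 6 had positive log2 fold changes, 5 of them at an unadjusted p under 0.05, and 1 was at 0 in a library. The part of the epithelial markers was not tested.

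Metabolic enzymes and genes of protein folding and translation were read in the same way. Of 21 metabolic enzymes 11 were higher and 10 lower with a median of 0.06. In 1 the groups did not overlap, against 13.0% of all tested genes, and 0 had an unadjusted p under 0.05, against 6.73%. The lists are short, so 0 is not read as fewer. Por, the electron donor of microsomal cytochromes P450 and the highest of them per length, was at 374, 386 and 364 CPM in mutants and 400.1, 399.5 and 454 CPM in wt, with groups just apart. Ung, a uracil-DNA glycosylase, averaged 0.67 CPM and overlapped between groups, as did Acacb, an acetyl-CoA carboxylase, at 5.61, 3.56 and 11.0 CPM against 5.29, 1.88 and 3.66 CPM. Mdh2, the mitochondrial malate dehydrogenase, was at 228, 631 and 287 CPM in mutants and 256, 308 and 267 CPM in wt, where mutant replicate 2 alone was high. Of 19 genes of folding, ubiquitin and translation 10 were higher and 9 lower with a median of 0.00. In 2 the groups did not overlap, against 13.0% of all tested genes, and 0 had an unadjusted p under 0.05, against 6.73%. Cops6, of the COP9 signalosome, was at 34.9, 33.9 and 40.05 CPM in mutants and 31.0, 28.7 and 30.2 CPM in wt. Triap1, a carrier of mitochondrial lipids, was at 11.9, 10.1 and 9.35 CPM against 7.36, 9.18 and 8.0 CPM, and both were higher in all mutant libraries.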

How the data were processed

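Ly6G-positive neutrophils were sorted from perfused, liberase-digested lungs, and cDNA from 2 ng of RNA was amplified by SMART-Seq v2 without strand information or molecular identifiers, per the labels' protocols. The authors deposited raw read counts per gene for 6 libraries. STAR, featureCounts and GRCm38 are named in the submitters' processing notes; versions, annotation release and strandedness of the counting were not given in the sources used here. Positions, per the file headers, and lengths cover all exons of a gene. The deposited exon length (other unit, bases) served only for CPM per kb. Symbols and exons came from GENCODE M21 (GRCm38): 55094 identifiers matched exactly, 300 without their version and 93 not. All replicate numbers follow accession order and were not used to pair libraries. Whether littermates fall across the groups in pairs is not stated in the labels.

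Genes passing edgeR's filterByExpr (minimum count 10) were TMM-scaled and fitted in R 4.3.3 with edgeR (4.0.16) by its quasi-likelihood test. Adjustment after Benjamini and Hochberg ran over all 15774 genes, with a threshold of 0.05. Standard errors are the log2 fold change over the square root of F. Alternatives were DESeq2 (1.42.0), limma-voom (limma 3.58.1), other scalings, other filters and each library left out. The fit was tested on simulated data. Stretches on other autosomes ran in steps of 36 Mb from base 1 and needed 100 tested genes. Gaps to a landmark are between gene bodies.

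Members and lists were chosen with earlier results of these data known. Named genes were, in each direction, the 8 members with an established symbol, groups that did not overlap, a mean of at least 5 CPM and the smallest unadjusted p; the nearest established genes around each landmark with at least 5 CPM (3 per side for Ap1s1, 1 for the others); of each list the 2 with the smallest unadjusted p and the one with the highest level per length; and the 5 highest levels per length. A gene that this rule names is not reported here. Adgrd1, Tmem116, Zcwpw1, Gm38082, A430110C17Rik and other genes outside this rule were named after their values were seen. Markers of T and NK cells, B and plasma cells, monocytes and dendritic cells, and erythroid cells and platelets each summed to less than 100 CPM in every library. The 3-count floors cover counting error only, and intervals of fold changes come from the edgeR fit and include the spread between libraries.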

Additional observations from a re-analysis of the deposited data

How the results depend on the processing

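The number of genes called depended on the tool and the filter. Over all genes edgeR called 1, DESeq2's Wald test 155, edgeR with no filter on low counts 70 and edgeR on genes that averaged 10 CPM or more 18. The 1 gene of the main edgeR fit was the landmark Ap1s1. Among members the same settings called 0 of 438, 10 of 438, 6 of 443 and 4 of 197. The shares over all genes tested in these settings were 0.00634%, 0.983%, 0.268% and 0.261%. Spp1, Cux1, Tfip11 and Gm38082 were called under each of the last 3 settings. Leaving out 1 library gave 0 to 2 calls over all genes and 0 among members, with 0 over all genes without mutant replicate 1, wt replicate 1 or wt replicate 3 and 2 without mutant replicate 2. The share of members with groups that did not overlap rose to between 22.0% and 28.8% with 1 library left out, as it did over all genes (21.6% to 24.6%), since 5 libraries overlap less often than 6. The share at an unadjusted p under 0.05 ran from 6.59% to 9.52% there, and from 5.62% to 7.65% over all genes. Among stretches of other autosomes the interval ranked 18 by the share at an unadjusted p under 0.05, 15 by the share with groups that did not overlap and 10 by the median absolute log2 fold change. With stretches shifted by 18 Mb these ranks were 14, 10 and 12. With the landmarks counted they were 14, 11 and 7. By the share that DESeq2 called the ranks were 4, 2 and 1, and the last of these adds back the genes around which the interval was drawn. Of 46 named genes 11 changed sign under at least 1 alternative. Protein-coding members alone, an alternative chosen after seeing the data, and members with 50 counts stayed within the 95% exact binomial intervals of both shares. These intervals treat genes as independent, which genes of the same libraries are not. Both alternatives are also subsets of the same members, so no conclusion is drawn from staying inside. The median absolute log2 fold change was 0.26 over members, 0.241 over protein-coding members and 0.198 over members with 50 counts. No paired analysis was possible because the labels give no shared replicate numbers. Depth limits the 84 members under 1 CPM.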
